A study of Mus musculus with 4 samples.

Results

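The genes described here encode the enzymes that turn pyruvate and fatty acids into reducing power in mitochondria: the pyruvate dehydrogenase complex and pyruvate carboxylase, the tricarboxylic acid (TCA) cycle, the acyl-CoA synthetases and carnitine shuttle, the β-oxidation spiral, the electron transfer flavoproteins, and the coactivators Ppargc1a and Ppargc1b. The 43 genes were listed by name from pathway membership. All 43 were found among the 16403 genes listed in the series. The RNA came from peritoneal macrophages of C57BL/6 mice, collected 4 days after an injection of 4% thioglycolate, left to adhere for 4 h and starved in medium with 0.5% serum. There were 4 groups of 1 library each: wild-type nontreat, wild-type IL-4, TIF1a-KO nontreat and TIF1a-KO IL-4, where IL-4 means 20 ng/mL for 6 h. TIF1a is another name for Trim24, and TIF1a-KO mice carry Trim24 floxed alleles and LysM-Cre, which is active in myeloid cells. It is not given in the sources used here whether the wild-type mice carried the Cre or the floxed alleles, or how many mice went into a library.

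Acetyl-CoA enters the TCA cycle at citrate synthase, and the cycle returns to oxaloacetate while it reduces NAD and FAD. In β-oxidation, a fatty acid is joined to CoA, carried into the mitochondrion by carnitine and shortened in repeated rounds, with electrons passing through the flavoproteins to the respiratory chain. IL-4 drives alternative (M2) activation of macrophages through the transcription factor STAT6, and fatty acid oxidation and an intact TCA cycle are commonly described in such cells. PGC-1β, the product of Ppargc1b, is a coactivator of mitochondrial and fatty acid oxidation genes.

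The libraries held between 11026033 and 11250099 reads assigned to genes. Levels are given as FPKM (fragments scaled by transcript length and library total), which allows comparison between genes. Trim24 was at 2.55 and 1.48 FPKM in the wild-type libraries and at 0.06 and 0.14 FPKM in the TIF1a-KO libraries. All 7 macrophage markers were present in each library. Their summed level was 14840 and 14737 FPKM in wild-type and 8894 and 8287 FPKM in TIF1a-KO libraries, a gap that lay in Lyz2, the locus that LysM-Cre uses (11289 and 10811 against 5193 and 4761 FPKM). Summed B cell, T and NK cell, neutrophil, mast cell, eosinophil, dendritic cell and mesothelial markers were each between 1.06 and 11.5 FPKM. Of the neutrophil markers, S100a9, Ly6g, Retnlg and Camp were listed in none of the 4 libraries and were set to 0. The other neutrophil markers were present. In wild-type nontreat, wild-type IL-4, TIF1a-KO nontreat and TIF1a-KO IL-4, S100a8 was at 8.76, 5.15, 5.26 and 7.52 FPKM. Mmp8 was at 2.73, 1.81, 1.70 and 1.88 FPKM in the same order. The 6 fibroblast markers summed to 45.9, 38.9, 23.3 and 43.2 FPKM in the order wild-type nontreat, wild-type IL-4, TIF1a-KO nontreat and TIF1a-KO IL-4. The part of these differences in the values below was not tested, and fewer cells of a type cannot be told apart from less RNA per cell.

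A gene was counted as expressed where its FPKM averaged 1 or more across the libraries, which 41 of the 43 did. Pcx and Ppargc1a did not pass. Together the 43 genes took 0.361% and 0.355% of assigned reads in the wild-type and TIF1a-KO nontreat libraries and 0.382% and 0.369% in the IL-4 libraries. Mean levels were highest for Idh1, Mdh2, Sdha and Sdhb, and among the genes that passed they were lowest for Ppargc1b and Suclg2.

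**Figure D1:**
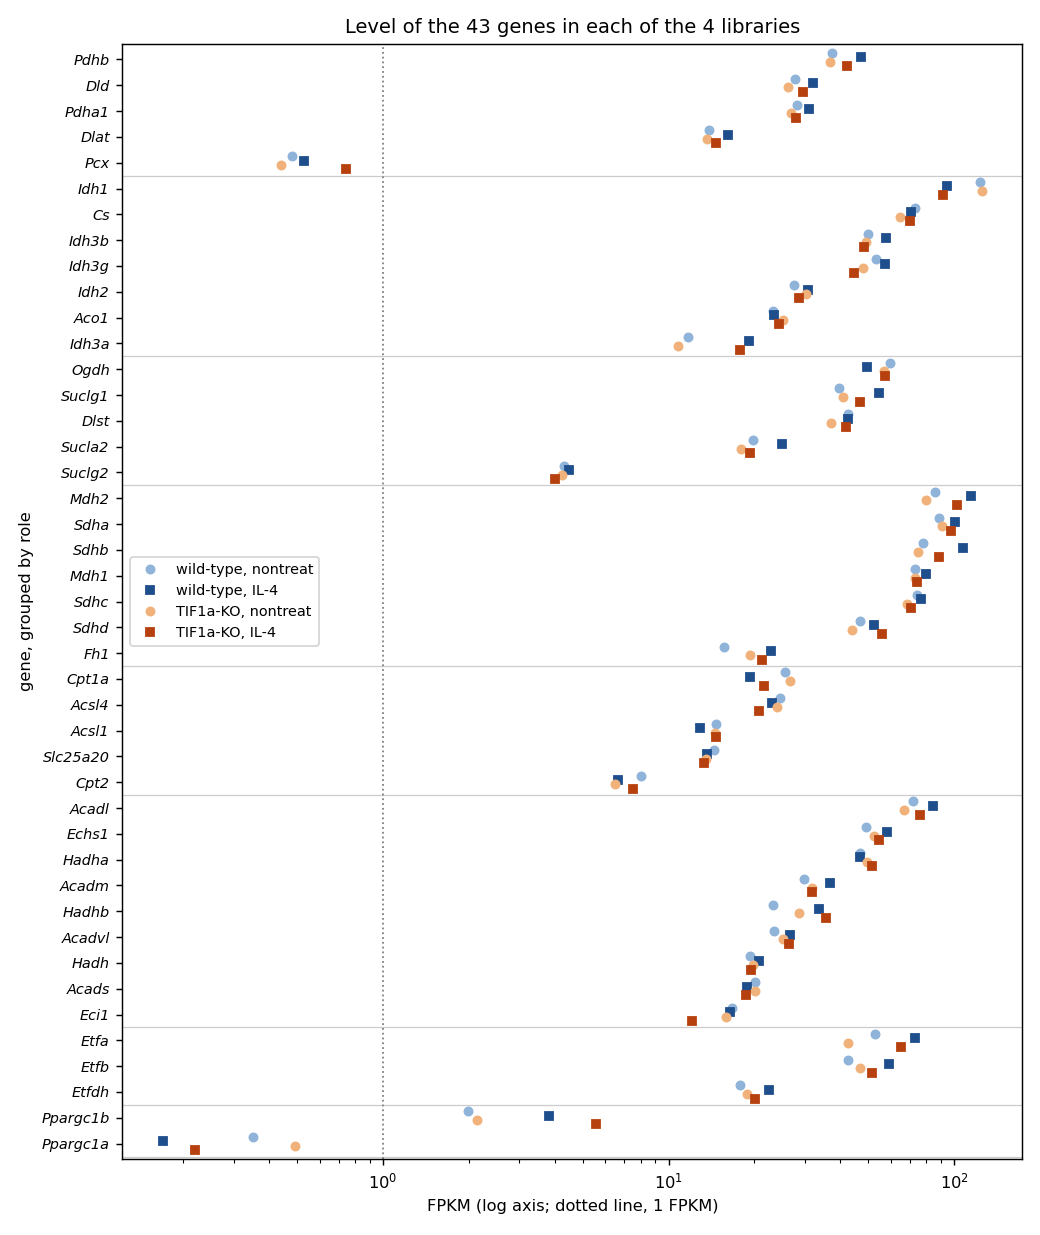
FPKM on a log axis for each of the 43 genes (rows, grouped by role) in the 4 single libraries (circles, nontreat; squares, IL-4; blue, wild-type; orange, TIF1a-KO), with no error bars because each group is 1 library. Most genes keep their 4 points close together, while Idh3a and Ppargc1b have both squares to the right of both circles and Ppargc1a has both squares to the left.

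To test whether IL-4 altered these genes, the IL-4 library was compared with the nontreat library within each genotype. With 1 library a group these pairs have no replicate check. A log2 ratio of FPKM (with 0.1 added to each value) is therefore given with a 95% interval that covers counting error only, and no p-value is attached to a pair. Past 1.5-fold in wild-type cells were 2 of the 41 genes, both higher, against 6.96% higher and 10.5% lower among all 10532 expressed genes. In TIF1a-KO cells 3 of 41 were past 1.5-fold, all higher, against 7.34% higher and 6.36% lower of all genes. Only Idh3a and Ppargc1b were past it in both genotypes, where 4.88% of all genes were higher and 4.28% lower in both. As shares of 41 genes these counts were at or below those of all genes.

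Small shifts were more one-sided. The log2 ratio was above 0 in both genotypes for 24 of 41 genes (58.5%) and below 0 in both for 6 (14.6%), against 37.4% and 36.9% of all genes. The median log2 ratio was 0.17 in wild-type and 0.07 in TIF1a-KO cells, while that of all genes lay at -0.01 and 0.01. Counting intervals lay above 0 in both genotypes for 12 genes (15.5% of all genes) and below 0 in both for 2, Idh1 and Cpt1a (16%). Across the 41 genes the IL-4 ratios of the genotypes, which share no library, had a Pearson r of 0.759 and a Spearman rho of 0.685. This is a description over genes, which are not independent replicates and which share library depth and the length trend given further on.

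**Figure D2:**
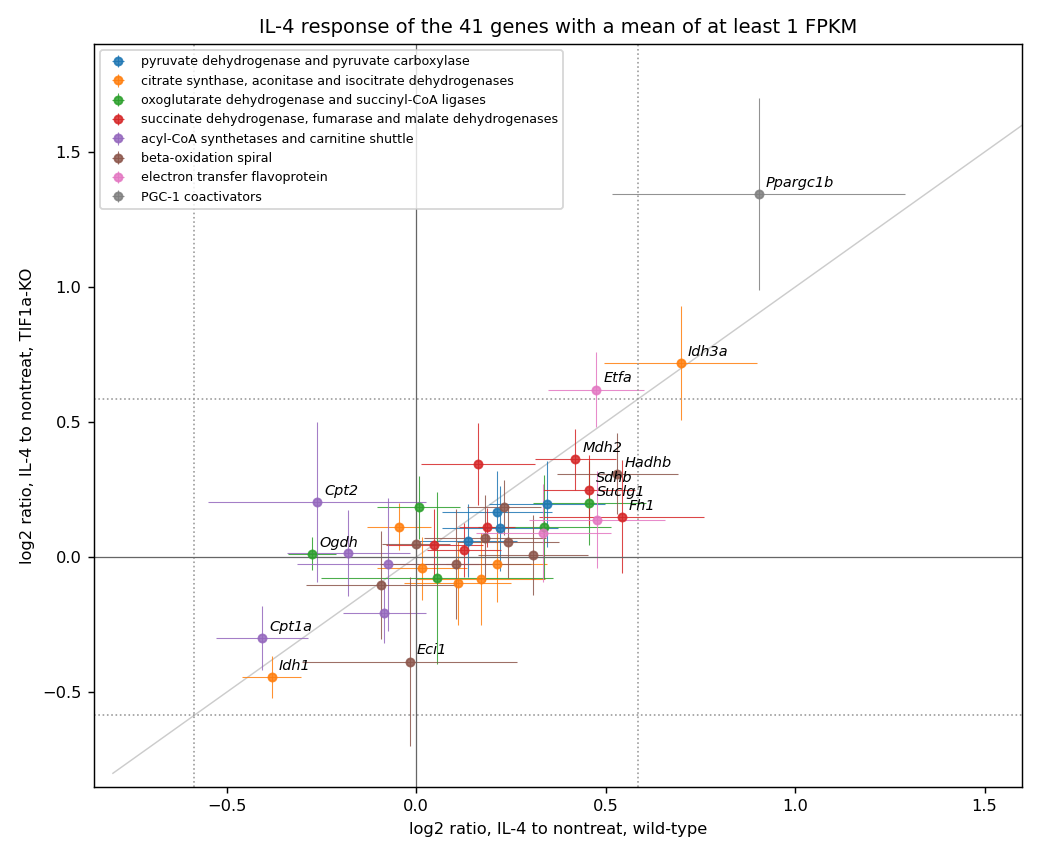
Log2 ratio of IL-4 to nontreat in wild-type (x axis) against TIF1a-KO (y axis) for the 41 expressed genes, with lines for 95% counting intervals, dotted lines at 1.5-fold and a grey diagonal of equality; colours mark roles. Ppargc1b and Idh3a lie beyond 1.5-fold on both axes, Etfa on the y axis only, and Idh1 and Cpt1a lie below 0 on both.

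The only test across libraries that the design allows is an additive model of genotype and treatment over all 4, fitted with edgeR's quasi-likelihood method, which leaves 1 residual degree of freedom. That 1 degree of freedom holds any difference of the IL-4 response between the genotypes, mixed with differences between libraries that may be technical. The p-values are scaled to it and to a spread shared across genes, and not to repeats of a condition. A gene whose IL-4 response differs between the genotypes is therefore called less readily. For the IL-4 effect, 11 of 43 genes (25.6%) had a Benjamini-Hochberg adjusted p under 0.05, 8 higher and 3 lower. Among all 11791 genes tested, 25.3% were called, 12% higher and 13.3% lower. The share called was near that of all genes, and the split between directions was 18.6% higher to 6.98% lower. The genes that rose were Idh3a, Suclg1, Sdhb, Fh1, Mdh2, Hadhb, Etfa and Ppargc1b, and those that fell were Idh1, Cpt1a and Ppargc1a. With DESeq2 in place of edgeR, and with every gene that had a read kept in the test, the calls that remained were the same 5: Idh3a, Mdh2, Etfa, Ppargc1b and Idh1. The calls among all genes fell as well, to 1223 of 16371 with DESeq2 and 1675 of 16371 with every gene with a read. With the length trend described further on entered as an offset, 14 of 43 were called, against 33.1% of all genes. Values from the edgeR model are given below as additive log2 effects with their adjusted p.

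The pyruvate dehydrogenase complex makes acetyl-CoA from pyruvate, and none of its 4 subunit genes listed here (Pdha1, Pdhb, Dlat and Dld) was called for IL-4 by edgeR. In that fit 25.3% of all genes were called. The call depends on the fit: Pdhb passed with limma, upper-quartile scaling and the length offset, and Dlat with the length offset. Their IL-4 log2 ratios were all above 0, from 0.14 to 0.35 in wild-type and from 0.06 to 0.20 in TIF1a-KO cells. Pdhb, the β subunit of the first enzyme of the complex, had the highest level of the group, at 37.3 FPKM in wild-type nontreat, 47.4 in wild-type IL-4, 36.7 in TIF1a-KO nontreat and 42.1 in TIF1a-KO IL-4. Both IL-4 libraries were above both nontreat libraries, and the additive log2 effect of 0.28 had an adjusted p of 0.053. Pcx, pyruvate carboxylase, which refills oxaloacetate, was the lowest gene of the group at 0.48, 0.53, 0.44 and 0.74 FPKM in the same order. Its TIF1a-KO log2 ratio of 0.64, the only one of the 4 pairs past 1.5-fold, had a counting interval of -0.15 to 1.43, and a difference was not detectable at this depth.

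At the entry to the cycle, Cs, citrate synthase, was at 72.8 FPKM in wild-type nontreat, 70.6 in wild-type IL-4, 64.9 in TIF1a-KO nontreat and 70.2 in TIF1a-KO IL-4. The additive log2 effect of IL-4 on Cs was 0.04 with an adjusted p of 0.76. At the next steps, isocitrate dehydrogenases of different compartments and cofactors were called in opposite directions. Idh3a encodes the catalytic α subunit of the mitochondrial NAD-dependent enzyme (chr9:54586511-54604662, GRCm38.p6). It was at 11.7 and 19.1 FPKM in wild-type nontreat and IL-4 cells and at 10.8 and 17.9 FPKM in TIF1a-KO nontreat and IL-4 cells. Both IL-4 libraries were above both nontreat libraries, with log2 ratios of 0.70 (0.50 to 0.90) in wild-type and 0.72 (0.51 to 0.93) in TIF1a-KO cells. The additive effect was 0.72 with an adjusted p of 0.00016. The other subunits of the same complex, Idh3b and Idh3g, were not called. Idh3b was at 49.97, 57.9, 49.2 and 48.3 FPKM in wild-type nontreat, wild-type IL-4, TIF1a-KO nontreat and TIF1a-KO IL-4 cells.

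Idh3a was the lowest of the 3 subunits in every library. It made up 10.2% of their summed FPKM in wild-type nontreat and 10.0% in TIF1a-KO nontreat cells, and 14.2% and 16.1% with IL-4. Within a library, the ratio of Idh3a to Idh3b was 0.235 (0.206 to 0.267) in wild-type nontreat, 0.330 (0.296 to 0.366) in wild-type IL-4, 0.220 (0.192 to 0.251) in TIF1a-KO nontreat and 0.370 (0.330 to 0.414) in TIF1a-KO IL-4 cells. The counting intervals of the nontreat and IL-4 libraries did not overlap in either genotype.

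Idh1, the cytosolic NADP-dependent enzyme (chr1:65158616-65186479), moved the other way. It was the highest gene of all 43 by mean level, at 123 and 94.6 FPKM in wild-type and at 125 and 91.7 FPKM in TIF1a-KO cells, nontreat first. Both IL-4 libraries were below both nontreat libraries, and the additive log2 effect of -0.40 had an adjusted p of 0.0031. Idh2, its mitochondrial counterpart, was at 27.5 and 30.9 FPKM in wild-type and at 30.3 and 28.6 FPKM in TIF1a-KO cells and was not called. The ratio of Idh1 to Idh2 was 4.49 and 4.13 in the nontreat libraries and 3.06 and 3.20 in the IL-4 libraries of wild-type and TIF1a-KO cells.

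In the middle of the cycle, 1 of 5 genes was called for IL-4 by edgeR, where 25.3% of all genes were called. With DESeq2, and with every gene with a read, none was called, where 1223 and 1675 of all 16371 genes were called. Suclg1, the α subunit shared by both succinyl-CoA ligases, rose from 39.7 to 54.5 FPKM in wild-type and from 40.9 to 47.0 FPKM in TIF1a-KO cells (additive log2 effect 0.34, edgeR adjusted p = 0.026). Its alternative partners differ in level: Sucla2 was 4.59-fold and 4.23-fold Suclg2 in the nontreat libraries and 5.59-fold and 4.83-fold in the IL-4 libraries, wild-type first, with overlapping intervals. Suclg2 was the lowest gene of this step at 4.31, 4.48, 4.23 and 4.00 FPKM. Ogdh, the first subunit of the oxoglutarate dehydrogenase complex, was the highest, at 59.9 FPKM in wild-type nontreat, 49.5 in wild-type IL-4, 56.7 in TIF1a-KO nontreat and 57.2 in TIF1a-KO IL-4 cells. Only the wild-type IL-4 library stood apart for Ogdh, whose reads were in part shared with other genes.

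Past succinate, 3 of 7 genes rose and none fell, where 12% of all genes rose. With DESeq2, and with every gene with a read, 1 of the 7 was called, Mdh2, where 1223 and 1675 of all 16371 genes were called. Sdhb, the iron-sulphur subunit of succinate dehydrogenase, was at 78.1 and 107 FPKM in wild-type and at 74.8 and 88.9 FPKM in TIF1a-KO cells, nontreat first (additive log2 effect 0.36, edgeR adjusted p = 0.013). Sdha, its flavoprotein partner in the same complex, was at 88.5 and 101 FPKM and at 90.6 and 97.9 FPKM, with an effect of 0.16 and an adjusted p of 0.20. Mdh2, the mitochondrial malate dehydrogenase and the highest gene of the group, was at 85.6 and 115 FPKM in wild-type and at 79.6 and 102 FPKM in TIF1a-KO cells, with an effect of 0.40 and an adjusted p of 0.0045. Both IL-4 libraries exceeded both nontreat libraries for Sdhb, Sdha and Mdh2. The ratio of Mdh2 to the cytosolic Mdh1 was 1.17 and 1.09 in nontreat and 1.44 and 1.38 in IL-4 libraries, wild-type first, with intervals that did not overlap within a genotype. This ratio is as deposited, and the transcripts differ in length (1297 and 1958 bases).

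Fh1, fumarase, which hydrates fumarate to malate, was the lowest gene of this group at 15.6 and 22.8 FPKM in wild-type and 19.2 and 21.3 FPKM in TIF1a-KO cells. The additive effect was 0.36 with an adjusted p of 0.046. The wild-type nontreat library was the low one. Promoter sequence was looked up for the 43 genes in RefSeq windows of GRCm38.p6, of which 40 had an entry (not Idh3a, Ppargc1b or Sdhc) in 48 windows, and a gene was counted where any of its windows held a motif in the 250 bases before the start. The Fh1 promoter is printed because it is 1 of only 2 among the 40, with Idh3b, that held TTC and GAA with 4 bases between them, a spacing associated with STAT6, the factor that IL-4 activates. These are the 250 bases before the start (chr1:175625636-175625885, minus strand), in which capitals mark that match at -142 to -133 and a GC box (GGGCGG, on the other strand) at -87 to -82.
Fh1: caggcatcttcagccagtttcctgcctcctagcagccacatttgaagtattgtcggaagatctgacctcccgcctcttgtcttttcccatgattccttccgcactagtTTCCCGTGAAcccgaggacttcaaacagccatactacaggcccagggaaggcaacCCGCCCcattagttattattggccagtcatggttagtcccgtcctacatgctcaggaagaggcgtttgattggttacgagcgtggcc
The STAT6 spacing was present in 5.85% of all 32851 promoter windows. Fh1 was called for IL-4 and Idh3b was not, and a match of letters is a description of the sequence and not a bound site.

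In the activation and carnitine steps, 1 of 5 genes was called for IL-4 by edgeR, where 25.3% of all genes were called. With DESeq2, and with every gene with a read, none was called, where 1223 and 1675 of all 16371 genes were called. Cpt1a, the outer membrane carnitine palmitoyltransferase that controls entry of long-chain fatty acids into mitochondria (chr19:3322326-3385735), fell. It was at 25.7 and 19.4 FPKM in wild-type and at 26.6 and 21.6 FPKM in TIF1a-KO cells, nontreat first, so that both IL-4 libraries were below both nontreat libraries. The log2 ratios were -0.41 (-0.53 to -0.28) and -0.30 (-0.42 to -0.18), and the additive effect of -0.34 had an adjusted p of 0.013. Acsl1, an acyl-CoA synthetase, was at 14.6, 12.9, 14.5 and 14.7 FPKM in wild-type nontreat, wild-type IL-4, TIF1a-KO nontreat and TIF1a-KO IL-4 cells, with an effect of -0.07 and an adjusted p of 0.65. Cpt2, the inner membrane enzyme that releases the acyl group to CoA, was the lowest of the group at 8.02, 6.67, 6.5 and 7.5 FPKM in the same order. The highest levels of the group were those of Cpt1a and of Acsl4.

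In the β-oxidation spiral, 1 of 9 genes was called for IL-4 by edgeR, where 25.3% of all genes were called. With DESeq2, and with every gene with a read, none was called, where 1223 and 1675 of all 16371 genes were called. Acadl, the long-chain acyl-CoA dehydrogenase, was the highest at 72.1 and 84.7 FPKM in wild-type and 67.0 and 76.1 FPKM in TIF1a-KO cells (additive log2 effect 0.22, edgeR adjusted p = 0.088). Eci1, an enoyl-CoA isomerase that handles unsaturated fatty acids, was the lowest at 16.7, 16.5, 15.9 and 12.1 FPKM, with the TIF1a-KO IL-4 library below the other 3 and with part of its reads shared with other genes. Hadhb, the β subunit of the mitochondrial trifunctional protein that carries the thiolase step, rose. It was at 23.2 and 33.6 FPKM in wild-type and at 28.7 and 35.5 FPKM in TIF1a-KO cells, nontreat first, with an additive effect of 0.43 and an adjusted p of 0.0064. Hadha, the α subunit of the same complex, was at 46.7 FPKM in both wild-type libraries and at 49.8 and 51.5 FPKM in TIF1a-KO cells, with an effect of 0.04 and an adjusted p of 0.81. The ratio of Hadhb to Hadha was 0.497 (0.451 to 0.547) and 0.576 (0.527 to 0.629) in the nontreat libraries and 0.719 (0.662 to 0.781) and 0.690 (0.636 to 0.748) in the IL-4 libraries, wild-type first. These ratios are as deposited, and the transcripts differ in length (2053 and 3835 bases). With the length trend given further on subtracted, the IL-4 log2 ratios were 0.47 and 0.28 for Hadhb and 0.09 and 0.06 for Hadha, wild-type first. As deposited they were 0.53 and 0.31, and 0 and 0.05. Intervals of the partner ratio with the trend subtracted are not given here.

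Hadha and Hadhb lie head to head on chromosome 5. Their annotated starts, at 30154980 on the minus strand and 30155253 on the plus strand, are 273 bases apart, so that the same stretch lies upstream of both. Most of the sequence between them is printed because both genes share it and only Hadhb was called. These are the 250 bases before the Hadhb start (chr5:30155003-30155252, plus strand), with its 2 GC boxes (GGGCGG) in capitals at -90 to -85 and -25 to -20.
Hadhb: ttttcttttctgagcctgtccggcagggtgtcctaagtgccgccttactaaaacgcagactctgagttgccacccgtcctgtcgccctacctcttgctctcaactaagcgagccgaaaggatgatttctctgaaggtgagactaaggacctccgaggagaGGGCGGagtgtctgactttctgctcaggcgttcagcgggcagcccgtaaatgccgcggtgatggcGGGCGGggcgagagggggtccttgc
A GC box was present in the windows of 27 of the 40 genes and in 32.7% of all windows. For each motif the genes are counted by any of their windows and the background by single windows, so these shares differ in unit. Searched on both strands, the ETS motif CCGGAAG was found in 4 of the 40 (Cpt2, Idh3g, Sdhd and Slc25a20; 6.91% of all windows). The NRF1 motif, GCGCA followed by TGCGC, was found in Etfdh alone (0.782% of all windows) and the ERR motif AAGGTCA in Acadm alone (4.08%). None of these 6 genes was among the 11 called for IL-4, where 25.6% of the 43 genes and 25.3% of all genes were called. With 6 genes this is no result about the motifs.

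The electron transfer flavoprotein collects electrons from the acyl-CoA dehydrogenases. Its α subunit gene Etfa (chr9:55454436-55512243) was at 52.7 and 73.3 FPKM in wild-type and at 42.4 and 65.3 FPKM in TIF1a-KO cells, nontreat first. Both IL-4 libraries were above both nontreat libraries, with log2 ratios of 0.48 (0.35 to 0.60) and 0.62 (0.48 to 0.76), the latter past 1.5-fold. The additive effect was 0.56 with an adjusted p of 0.00053. Etfb, the β subunit, was at 42.4, 59.1, 46.8 and 51.5 FPKM in wild-type nontreat, wild-type IL-4, TIF1a-KO nontreat and TIF1a-KO IL-4 cells, and its adjusted p was 0.052. The ratio of Etfa to Etfb was 1.24, 1.24, 0.907 and 1.27 in that order, so that the TIF1a-KO nontreat library was the one that stood apart. Etfdh, the dehydrogenase that passes the electrons to ubiquinone, was the lowest of the 3 at 17.8, 22.4, 18.9 and 20.1 FPKM.

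The PGC-1 coactivators had IL-4 log2 ratios of opposite sign, at low levels. Ppargc1b (chr18:61291445-61400756) was at 1.99 and 3.81 FPKM in wild-type and at 2.14 and 5.59 FPKM in TIF1a-KO cells, nontreat first, which rests on 81, 158, 87 and 227 reads. The folds were 1.87 and 2.54, with log2 ratios of 0.90 (0.52 to 1.29) and 1.34 (0.99 to 1.70). Its additive effect of 1.18 (adjusted p = 7.4e-05, edgeR) was the largest of the 43 genes. Ppargc1a was at 0.35 and 0.17 FPKM in wild-type and at 0.49 and 0.22 FPKM in TIF1a-KO cells, from 25, 12.3, 35.04 and 16.03 expected reads. Its additive effect was -1.09 with an edgeR adjusted p of 0.034, at a depth where the wild-type interval of the log2 ratio ran from -1.71 to 0.23. Ppargc1a did not pass as expressed, and it was not called with DESeq2 or with every gene with a read. The level of Ppargc1b was 5.69-fold (3.64 to 8.87) and 4.37-fold (2.96 to 6.45) that of Ppargc1a in the nontreat libraries, wild-type first. In the IL-4 libraries it was 22.4-fold (12.7 to 39.6) and 25.4-fold (15.4 to 41.9), with wide intervals from the few Ppargc1a reads.

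**Figure D3:**
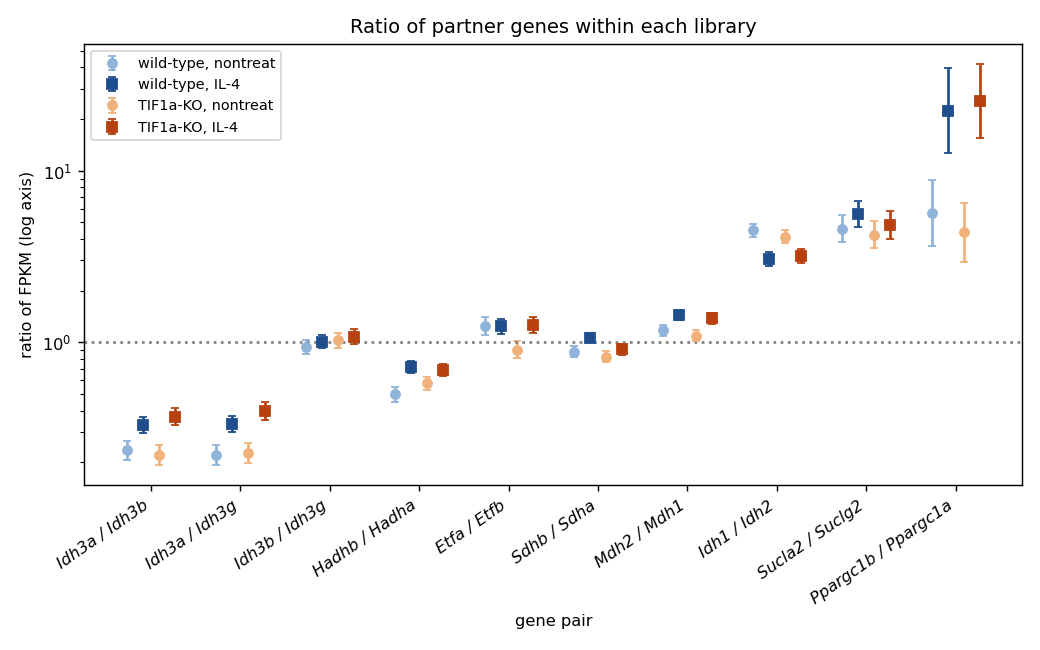
Ratio of FPKM within each single library for 10 pairs of partner genes, on a log axis, with 95% counting intervals as error bars (circles, nontreat; squares, IL-4; blue, wild-type; orange, TIF1a-KO) and a dotted line at equal levels. The squares lie above the circles of the same colour without overlap for Idh3a to Idh3b and for Hadhb to Hadha, and below them for Idh1 to Idh2. Ratios are as deposited, without removal of the length trend given further on, and partner genes differ in transcript length.

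To ask whether loss of TIF1a altered these genes, the TIF1a-KO library was compared with the wild-type library within each treatment. None of the 41 genes was past 1.5-fold, either without IL-4 (4.22% of all genes) or with it (6.76%). Log2 ratios of TIF1a-KO to wild-type ran from -0.31 to 0.30 in nontreat and from -0.44 to 0.54 in IL-4 cells. In the additive edgeR fit none of the 43 was called for genotype, against 1.66% of all genes, and 4 (9.30%) had an unadjusted p under 0.05, against 14.2% of all genes. DESeq2 and limma called none either, with 0 and 3 at an unadjusted p under 0.05. Among all genes, DESeq2 called 65 of 16371 and limma 92 of 10532, with 453 and 1341 at an unadjusted p under 0.05.

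Genotype log2 ratios were below 0 for 24 of 41 genes without IL-4 (51.8% of all genes) and for 32 of 41 with it (47.8%), with medians of -0.02 and -0.10. With the length trend given further on subtracted, 21 and 29 were below 0, against 5248 and 5303 of all 10532 genes. The medians of the 41 were then -0.01 and -0.04. The ratio was below 0 in both treatments for 20 genes (48.8%) and above 0 in both for 5 (12.2%), against 30.8% and 30.5% of all genes. Ppargc1b was the highest of the 41 with IL-4, at a log2 ratio of 0.54 (0.25 to 0.83) or 1.46-fold, and was at 0.10 (-0.34 to 0.54) without it. Eci1 was the lowest with IL-4, at -0.44 (-0.75 to -0.13). Etfa was the lowest without IL-4, at -0.31 (-0.46 to -0.17), and was at -0.17 (-0.29 to -0.05) with it.

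The IL-4 responses of the genotypes were then set against each other. There is no test of this difference, because it would take the last degree of freedom. The counting interval of the difference excluded 0 for 12 of 41 genes (29.3%), against 24.2% of all genes. The signed log2 ratio was higher in TIF1a-KO cells for Cs, Ogdh, Dlst and Cpt2, and lower for Idh2, Idh3b, Suclg1, Sdhb, Fh1, Acadm, Hadhb and Etfb. A higher ratio is not always a larger change: Ogdh was at -0.28 in wild-type and 0.01 in TIF1a-KO cells. Cpt2 had the widest positive difference in log2 ratio of the 12, 0.47 (0.05 to 0.88), from -0.26 in wild-type to 0.20 in TIF1a-KO cells. Fh1 had the widest negative one, -0.39 (-0.70 to -0.09).

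Transcript length moved with several of these values. Among all 10532 genes the Spearman rho between length and the log2 ratio was -0.364 for IL-4 in wild-type, -0.101 for IL-4 in TIF1a-KO, 0.123 for genotype without IL-4 and 0.507 for genotype with IL-4. The comparisons with the stronger trends share the wild-type IL-4 library. The genes described here were shorter than most, with a median transcript of 2108 bases against 2716, and over the 43 genes rho was -0.449 for IL-4 in wild-type and 0.608 for genotype with IL-4. With the trend over all genes subtracted, the median IL-4 log2 ratio was 0.13 in wild-type and 0.06 in TIF1a-KO cells, against 0.17 and 0.07 as deposited. The number of genes above 0 in both IL-4 pairs was then 22 and the number below 0 was 6. The share of all genes in both pairs was not computed with the trend subtracted. In single pairs, 30 of 41 were above 0 in wild-type and 27 in TIF1a-KO cells, against 5444 and 5373 of all 10532 genes. For genotype, 16 were below 0 in both treatments and 7 above.

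Single genes shifted with it by their length. Ogdh, the longest at 6639 bases, had an IL-4 log2 ratio of -0.28 in wild-type cells that became 0.07, and a genotype log2 ratio with IL-4 of 0.21 that became -0.09. Its difference between genotypes of 0.29 became 0.02. Cpt2 kept its difference, at 0.48, and Fh1 had -0.34. With the trend subtracted, the interval of the difference excluded 0 for 9 genes, of which Cs, Dlst and Cpt2 on the positive side and Fh1 and Acadm on the negative side were among the 12 above. Sdhd and Etfa on the positive side and Aco1 and Acsl4 on the negative side were new. Ogdh, Idh2, Idh3b, Suclg1, Sdhb, Hadhb and Etfb dropped out. The share of all genes was not computed with the trend subtracted. Idh3a, at 0.66 and 0.69, and Ppargc1b, at 0.98 and 1.35, stayed past 1.5-fold in both genotypes.

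**Figure D4:**
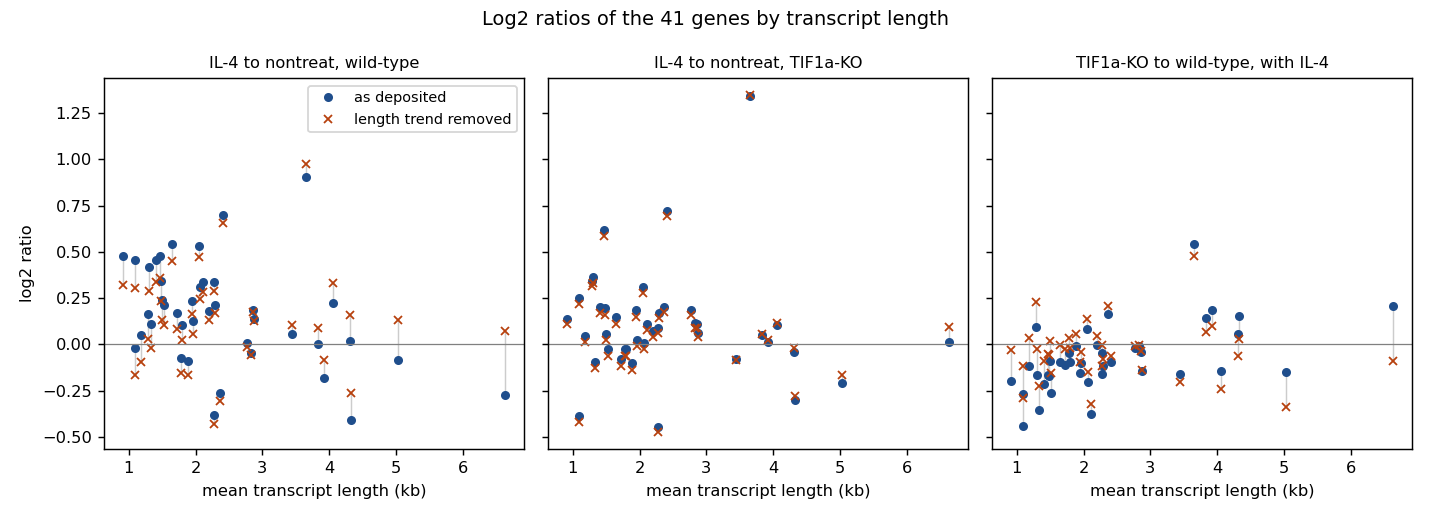
Log2 ratio against mean transcript length in kilobases for the 41 genes in 3 comparisons (panels), as deposited (blue circles) and with the trend over all genes subtracted (crosses), joined by grey lines. In wild-type IL-4 and in genotype with IL-4 the short and the long genes shift most, while in TIF1a-KO IL-4 the crosses stay close to the circles.

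Beyond the 43 genes, 97 further genes of pyruvate entry, the cycle's side branches, mitochondrial and peroxisomal fatty acid oxidation, lipid uptake and lipolysis, and their regulators were listed, of which 94 were present. In the additive edgeR fit for IL-4, 12 of 86 tested rose and 11 fell, which is 26.7% called against 25.3% of all genes. With DESeq2 7 of 94 were called higher and 4 lower, against 617 and 606 of all 16371 genes. With every gene with a read 8 and 4 of 94 were called, against 870 and 805 of all 16371 genes. Of 9 genes of pyruvate entry none rose and 2 fell, of 19 on side branches of the cycle 3 rose and 2 fell, and of 14 regulators 1 rose and 2 fell. Of 17 other mitochondrial fatty acid oxidation genes 3 rose and none fell, of 12 peroxisomal genes 2 rose and 2 fell, and of 15 for activation, uptake and lipolysis 3 rose and 3 fell. Past 1.5-fold higher in both genotypes were Acss1, Pparg, Abcd2, Hsd17b10 and Cd36. Acss1, which makes acetyl-CoA from acetate in mitochondria, was at 7.90 and 20.2 FPKM in wild-type and at 9.13 and 24.5 FPKM in TIF1a-KO cells, nontreat first. Pparg, a nuclear receptor of lipid metabolism, was at 47.9 and 142 FPKM and at 47.2 and 135 FPKM in the same order. Abcd2, a peroxisomal fatty acyl transporter, was at 5.49 and 12.2 FPKM and at 6.28 and 13.5 FPKM. Hsd17b10, a mitochondrial dehydrogenase of branched chain and short-chain substrates, was 1.93-fold and 1.68-fold higher with IL-4, and Cd36, a fatty acid uptake receptor, 1.70-fold and 1.63-fold.

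Past 1.5-fold lower in both genotypes were the lipases Mgll and Lpl. Mgll, monoacylglycerol lipase, was at 23.1 and 11.3 FPKM in wild-type and at 35.8 and 16.9 FPKM in TIF1a-KO cells, nontreat first. It was called for genotype too, with an additive log2 effect of 0.61 (edgeR adjusted p = 0.0039). Lpl, lipoprotein lipase, was at 342 and 213 FPKM and at 487 and 285 FPKM in the same order, with a genotype effect of 0.47 (adjusted p = 0.013). In this fit Mgll and Lpl were the 2 of 86 genes called for genotype, against 1.66% of all genes. With every gene with a read neither was called, with adjusted p of 0.17 and 0.23, and with upper-quartile scaling or the length offset Cd36 was called as well.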

How the data were processed

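Total RNA was sequenced on an Illumina HiSeq instrument. Per the labels, the authors used Bowtie and RSEM on GRCm38 (mm10); versions and the use of strand are not given in the sources used here. The deposited expected counts are reads assigned to a gene and need not be whole where genes share reads, as for Pdha1, Aco1, Ogdh and Eci1 in 4 libraries and Ppargc1a in 3. The authors' deposited FPKM values divide them by transcript length and library total. Genes not listed in a library were set to 0. Symbols and positions came from RefSeq (GRCm38.p6), which matched 16365 of 16403 gene IDs.

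Samples were grouped by their titles, 1 library a group. Ratios are of FPKM + 0.1, on a scale that understates changes of low genes. A pair was read past 1.5-fold among genes averaging 1 FPKM or more, with 95% intervals for counting error only, from the reads plus 0.5. Reads carry no molecular identifiers. The additive model used rounded expected counts in edgeR 4.0.16 (R 4.3.3; TMM, filterByExpr, quasi-likelihood test, adjusted p under 0.05 by Benjamini-Hochberg over all genes). Alternatives were upper-quartile scaling, DESeq2 1.42.0, limma 3.58.1, other filters, pseudocounts and folds, and removal of a length trend (lowess over 0.3 of genes of 200 bases or more). On simulated data for the IL-4 effect, the edgeR fit recovered 93 of 100 genes changed 2-fold and 50 of 100 changed 1.5-fold among 11746 genes, with 5 false calls. Those data had 1 dispersion for all genes and no genotype effect, interaction or length trend, so they give no false call rate for these libraries. For simulated pair ratios of 9595 genes, a length trend in 1 library raised false calls from 14 to 76. Removing the trend brought them to 13. The simulated trend was a straight line in log2 length with counting noise only, a form that the removal is built to fit. It therefore gives no measure of how well the removal works in these libraries.

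The 43 genes and the lists were chosen with earlier results of these data known. Values in all libraries were given for genes past 1.5-fold in a pair, for Cs, Idh1, Sdha, Acsl1, Cpt1a, Ppargc1a and Ppargc1b, and for the highest and lowest gene of each role. Further pathway genes were named when past 1.5-fold one way in both IL-4 pairs. The other genes called for IL-4 and their partner subunits were added after their values were seen, as was the choice of promoters.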

Additional observations from a re-analysis of the deposited data

How the results depend on the processing

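Among single-gene log2 ratios whose interval excluded 0, the sign changed for Ogdh alone when the length trend was removed, from -0.28 to 0.07 for IL-4 in wild-type and from 0.21 to -0.09 for genotype with IL-4, and under no other scaling or pseudocount run. Genotype calls among the 43 genes stayed at 0 under every alternative run. The number of genes past 1.5-fold with IL-4 in wild-type cells went from 2 to 1 with a minimum of 5 FPKM and to 0 at a fold of 2. In TIF1a-KO cells it went from 3 to 5 with no filter and to 1 at a fold of 2. The shares of all genes under these filters and folds are not given here, so these counts have no background. In the additive fit the 11 calls for IL-4 became 5 with every gene with a read, 5 with DESeq2 and 3 when the fitted fold also had to exceed 1.5. They became 14 with the length trend as an offset (33.1% of all genes), which added Pdhb, Dlat and Etfb, 13 with upper-quartile scaling, which added Pdhb and Etfb, and 10 with limma, where Fh1 was lost, Pdhb was gained and Ppargc1a was not tested. The calls among all genes moved too, and are not given here for the limit on the fitted fold. They were 1675 of 16371 with every gene with a read and 1223 of 16371 with DESeq2. With upper-quartile scaling they were 3376 of 11791, and with limma 2359 of 10532. Of 172 log2 ratios, 14 moved beyond their counting interval when the length trend was removed, and none did under 5 other scalings and pseudocounts. Lpl in wild-type cells then came just inside 1.5-fold, at -0.58. The causes were not tested. No paired analysis was possible because each group is 1 library and the labels carry no replicate numbers. Leaving out a library was not run, since the additive model would then have no residual degrees of freedom. Depth limits Pcx and Ppargc1a most.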
